A study of Homo sapiens with 9 samples.

Results

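The genes of the mitochondrial respiratory chain were followed in 3 human neuroblastoma cell lines. Members were chosen by symbol, as every row named as a mitochondrial ND, CO, CYB or ATP gene or as a nuclear NDUF, UQCR, COX4 to COX8 or ATP5 gene. This gave 98 of 19706 usable gene symbols, of which 13 are encoded in mitochondrial DNA and 85 in the nucleus. Complex I had 7 mitochondrial and 36 nuclear members, complex III 1 and 9, complex IV 3 and 19, and complex V, the ATP synthase, 2 and 16. The other 5 carry a matching symbol without being a subunit of a complex (ATP5S, ATP5SL, ATP5EP2, ATP5J2-PTCD1 and NDUFC2-KCTD14). NDUFA4 was counted with complex IV, of which it is a subunit despite its name.

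Polyadenylated RNA of untreated cells was sequenced in 3 libraries of each line, 9 in all. Kelly and BE(2)C carry amplified MYCN, an oncogene of high-risk neuroblastoma, and SH-SY5Y does not; all 3 lines were grown in the same medium and collected at 70% confluence. BE(2)C and SH-SY5Y are clonal sublines of patient-derived lines, and with 1 non-amplified line, line identity and MYCN status cannot be told apart. Nothing in the labels says that the libraries of a line are separate cultures; p-values then cover the spread between these libraries only, and that spread may be technical.

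The respiratory chain passes electrons from NADH and succinate to oxygen through complexes I to IV, pumps protons across the inner mitochondrial membrane, and drives ATP synthesis at complex V. Its subunits come from 2 genomes: the hydrophobic core of complexes I, III, IV and V is encoded in mitochondrial DNA, and all other subunits, with the whole of complex II, in the nucleus. Mitochondrial genes are transcribed as long polycistronic RNAs that are cut into single mRNAs and polyadenylated, whereas each nuclear subunit gene has a promoter of its own. The nuclear factors NRF1, GABPA (an ETS factor) and YY1 are known regulators of such promoters, and MYC-family factors are known to act on nuclear genes of mitochondrial biogenesis.

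Values are scaled TPM: transcripts per 1000000 over gene entries alone, divided by a trimmed-mean factor per library. TPM is per length, so levels of different genes can be set side by side, with the limit given for low members. Fold changes are differences of log2(scaled TPM + 1) from limma, fitted over all 9 libraries and 13076 genes, with Benjamini-Hochberg adjusted p-values under 0.05 counted as called. TPM keeps no sequencing depth, so the depth is unknown and no counting interval can be given. Spike-in RNA took 83.7% to 90.6% of each deposited total. For the 61 spike-ins whose mean reached 10 TPM, log2 ratios between 2 libraries had an SD of 0.0606 to 0.103 within a line and 0.0602 to 0.0993 between BE(2)C and SH-SY5Y, but 0.310 to 0.379 between Kelly and either other line. The part of this in the Kelly comparisons was not tested. Sympathetic neuroblastoma markers (9 genes, among them HAND2 and DBH) summed to 4408 to 9139 scaled TPM in every library, although TH, the first enzyme of catecholamine synthesis, was near 0 in SH-SY5Y. The 8 markers of blood, epithelial, liver, endothelial and connective tissue cells summed to 1.24 to 8.92, and 3 of them (CD3E, ALB and HBB) were listed at 0 in every library.

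Several mitochondrial mRNAs overlap, which bears on how their values can be read. The 3 junctions below are from the GRCh38 mitochondrial sequence (forward strand). MT-ATP8 and MT-ATP6 share 46 bases (chrM:8527-8572, in capitals) and MT-ND4L and MT-ND4 share 7 (chrM:10760-10766, in capitals), and each pair is known to stay on 1 bicistronic mRNA. MT-ND5 ends where MT-ND6, read from the opposite strand, begins to be covered (the last 30 bases of MT-ND6, chrM:14149-14178, in capitals).
MT-ATP8 to MT-ATP6, chrM:8497-8602: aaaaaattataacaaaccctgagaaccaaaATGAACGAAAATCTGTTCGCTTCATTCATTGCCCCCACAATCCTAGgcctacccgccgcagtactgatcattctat
MT-ND4L to MT-ND4, chrM:10730-10796: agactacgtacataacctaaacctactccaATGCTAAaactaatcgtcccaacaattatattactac
MT-ND5 to MT-ND6, chrM:14119-14178: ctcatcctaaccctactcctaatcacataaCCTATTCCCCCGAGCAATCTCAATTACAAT

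All 13 mitochondrial-encoded subunit genes were higher in BE(2)C than SH-SY5Y, and by nearly the same amount. MT-ATP8 and MT-ATP6 share an mRNA, as do MT-ND4L and MT-ND4, so these are not 13 separate observations. The median log2 fold change was 1.22, with a range of 1.06 (MT-ND3) to 1.41 (MT-CO3), and adjusted p-values ran from 0.00013 to 0.00113 (limma). Of all genes tested in this comparison, 59.4% were called, 28.6% higher and 30.7% lower, with a median log2 fold change of -0.04. MT-CO1, the catalytic subunit of cytochrome c oxidase, stood at 37307, 61703 and 50737 scaled TPM in the 3 BE(2)C libraries. It stood at 20587, 19598 and 20465 in SH-SY5Y. Every BE(2)C library lay above every SH-SY5Y library, and the difference was 1.27 ± 0.18 on the log2 scale (SE; limma, adjusted p = 0.000262). MT-CYB, the only mitochondrial-encoded subunit of complex III, was at 15320, 24315 and 19602 in BE(2)C and at 8706, 8285 and 8776 in SH-SY5Y (log2 fold change 1.18 ± 0.17). MT-CO3, a core subunit of complex IV, differed most, with 40433, 68228 and 52682 in BE(2)C against 19898, 18903 and 20407 in SH-SY5Y. MT-ATP6, the proton channel subunit of ATP synthase, was higher by 1.22 ± 0.20 and MT-ND1, a membrane subunit of complex I, by 1.25 ± 0.23. For none of the 13 did the BE(2)C and SH-SY5Y libraries overlap; of all genes tested, 31.7% were higher in BE(2)C with no overlap. Within BE(2)C, the first library was the lowest and took 24.5% of its gene total from mitochondrial genes, against 35.3% and 31.8% in the other two and 16.5% to 19.8% in the Kelly and SH-SY5Y libraries. All 13 were still called higher when any 1 library was left out, but 7 were with no filter on low values, and with quantile normalization 3 were called higher and 1 lower.

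**Figure D1:**
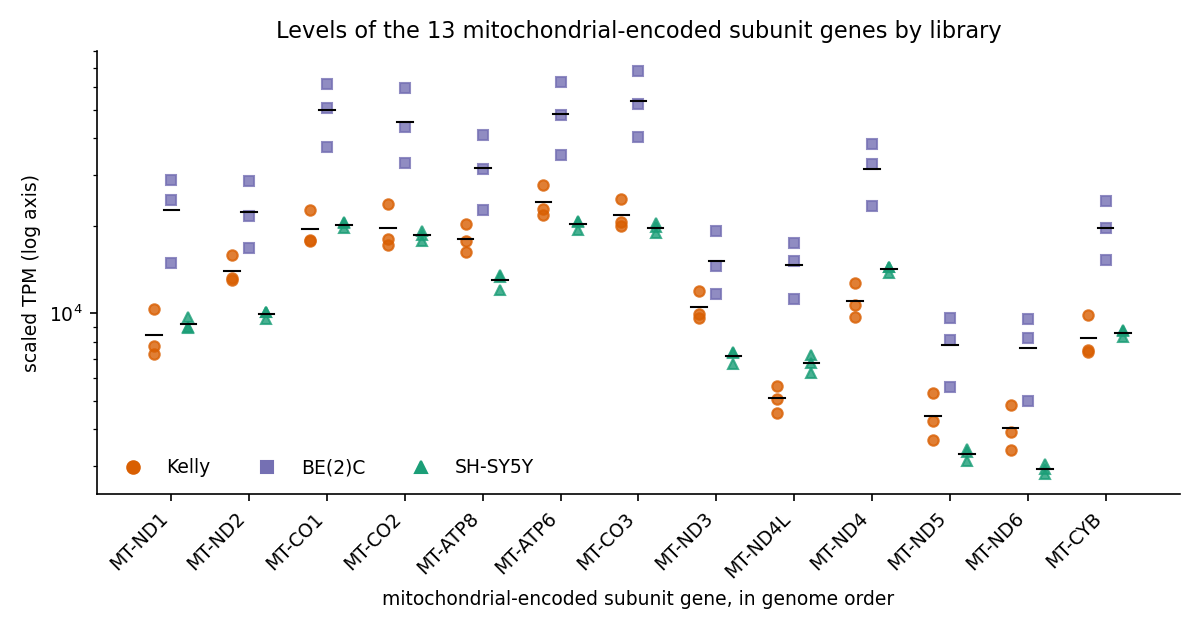
Scaled TPM (log axis) of the 13 mitochondrial-encoded subunit genes, in genome order, in the 3 libraries of each line; bars are means of 3 libraries. The BE(2)C points lie above those of SH-SY5Y for every gene, and the Kelly points lie near SH-SY5Y, all above it for MT-ND2, MT-ND3, MT-ND5, MT-ND6, MT-ATP6 and MT-ATP8, all below it for MT-ND4 and MT-ND4L, and overlapping it for the other 5. Only MT-ND2 and MT-ND3 were called in Kelly vs SH-SY5Y. The share of all genes without overlap was not counted in that comparison.

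In Kelly, the other MYCN-amplified line, the same genes stood close to SH-SY5Y. The median log2 fold change was 0.13 (range -0.40 to 0.55), and 2 of 13 were called, where 55.3% of all genes tested were called, 28.1% higher and 27.2% lower. MT-ND2 was at 15888, 12986 and 13240 scaled TPM in Kelly, against 10102, 9599 and 10145 in SH-SY5Y (0.49 ± 0.18; limma, adjusted p = 0.0398). MT-ND3 was at 11903, 9642 and 9964 against 7377, 6730 and 7288 (0.55 ± 0.17; adjusted p = 0.0200). For both, the lowest Kelly library exceeded the highest SH-SY5Y library. MT-ND4L was at 5654, 5100 and 4558 in Kelly and 6774, 6257 and 7186 in SH-SY5Y, a difference of -0.40 ± 0.16 that did not pass (adjusted p = 0.0549). MT-ND4, which shares its mRNA, stood at -0.37 ± 0.18 (adjusted p = 0.102). The 2 calls were near the limit. MT-ND2 lost its call without any 1 of the Kelly or SH-SY5Y libraries, with log2 fold changes of 0.40 to 0.54. MT-ND3 lost it without Kelly 1 (0.46) or SH-SY5Y 2 (0.51). Without Kelly replicate 1, or without SH-SY5Y replicate 2, none of the 13 was called higher; without any 1 of Kelly 2, Kelly 3, SH-SY5Y 1 or SH-SY5Y 3, 1 was; without BE(2)C replicate 1, which enters only through the shared spread, 5 were higher and 2 lower. Against BE(2)C, all 13 were lower in Kelly, with a median of -1.18 and a range from -1.50 (MT-ND4L) to -0.50 (MT-ND3, a call lost without any 1 of Kelly 2, Kelly 3, BE(2)C 2 or BE(2)C 3, with -0.32 without BE(2)C 2); 52.5% of all genes tested were called in that comparison, 24.6% lower and 27.9% higher. The comparisons of Kelly and of BE(2)C with SH-SY5Y share the SH-SY5Y libraries and are not independent.

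The composition of the mitochondrial mRNAs also differed by line, which a common shift in level leaves out. Each gene was expressed as a share of the sum of the 13 in its library, a measure that no scaling of the library changes. In Kelly, the shares of MT-ND2, MT-ND3, MT-ATP6 and MT-ATP8 were above, and those of MT-ND1, MT-ND4, MT-ND4L, MT-CYB and MT-CO1 below, every library of both other lines. MT-ND3 made up 6.08%, 6.24% and 6.35% of the sum in Kelly. It made up 4.27%, 4.12% and 3.90% in BE(2)C and 4.72%, 4.57% and 4.62% in SH-SY5Y. MT-ND4 made up 6.48%, 6.94% and 6.20% in Kelly, 8.20% to 8.70% in BE(2)C and 9.22%, 9.34% and 9.16% in SH-SY5Y. The shares of these neighbouring complex I genes thus differed in opposite directions: the log2 ratio of MT-ND4 to MT-ND3 was 0.07 ± 0.10 in Kelly (SD, n = 3), against 0.995 ± 0.03 in SH-SY5Y and 1.05 ± 0.09 in BE(2)C. Between BE(2)C and SH-SY5Y the shares differed less. MT-CO3 took 14.5 ± 0.38% in BE(2)C against 12.8 ± 0.10% in SH-SY5Y, and MT-ND3 4.10 ± 0.19% against 4.64 ± 0.07%; the log2 ratios of mean shares were 0.18 and -0.18, and no other of the 13 differed by more. These shares were compared as values, with no test. Spike-in log2 ratios had an SD of 0.310 to 0.379 between Kelly and either other line, against 0.0602 to 0.0993 between BE(2)C and SH-SY5Y. The part of this in the Kelly shares was not tested.

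**Figure D2:**
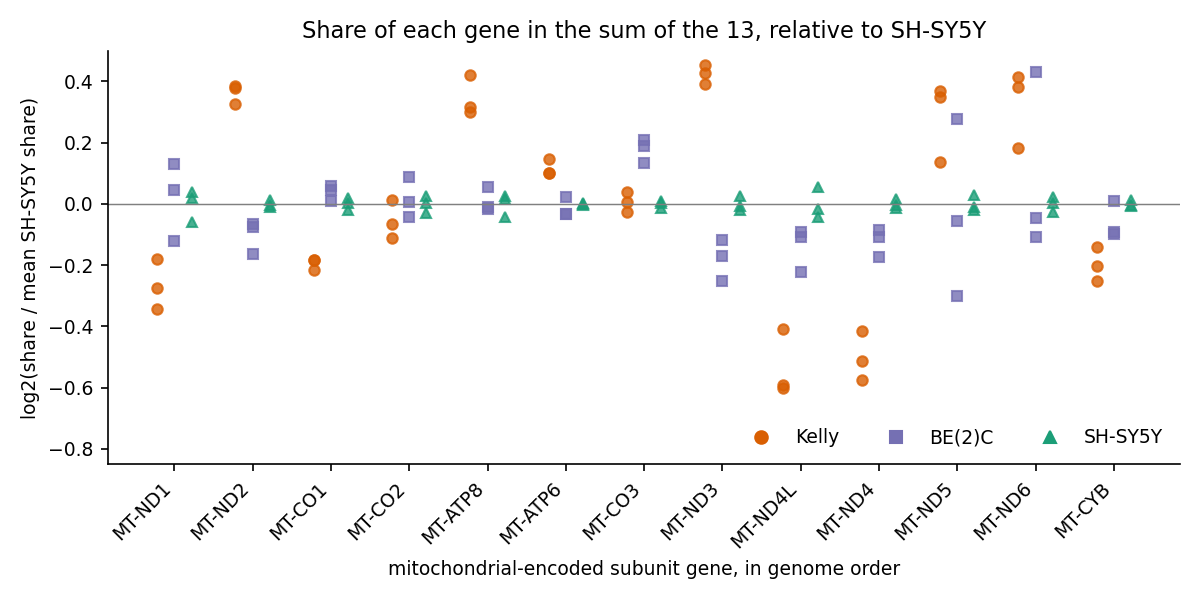
Log2 ratio of each mitochondrial gene's share of the sum of the 13 to its mean share in SH-SY5Y, by library, in genome order. Kelly lies above both other lines for MT-ND2, MT-ATP8, MT-ATP6 and MT-ND3 and below them for MT-ND1, MT-CO1, MT-ND4L, MT-ND4 and MT-CYB. How far the wider spread of spike-in ratios with Kelly enters these shares was not tested.

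Genes on 1 mRNA gave a check of these shares. The log2 ratio of MT-ND4 to MT-ND4L, whose 7-base overlap is shown above, lay between 1.01 and 1.17 in all 9 libraries, and the means were 1.11 (Kelly), 1.08 (SH-SY5Y) and 1.10 (BE(2)C). The ratio of MT-ATP6 to MT-ATP8, with the 46-base overlap, was 0.42 ± 0.04 in Kelly, against 0.65 ± 0.04 in SH-SY5Y and 0.62 ± 0.01 in BE(2)C, and the Kelly libraries did not overlap the others. MT-ATP8 (207 bases) and MT-ND4L (297 bases) are the shortest of the 13, and the sources used here do not give how reads in an overlap were treated. MT-ND6 is the only member on the opposite strand, and its mRNA is known to lack a stable poly(A) tail. It stood at 4847, 3913 and 3385 in Kelly, 5018, 8223 and 9572 in BE(2)C and 2919, 2804 and 3048 in SH-SY5Y, within a log2 ratio of -0.02 to 0.23 of MT-ND5 in every library. The strand setting of the counting is not stated, so MT-ND6 reads cannot be told apart from reads of RNA running the other way. The ribosomal RNA genes of the mitochondrial genome are not analysed here.

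The nuclear-encoded members were also higher in BE(2)C than SH-SY5Y, by less and with more variety. Of 85 members, 79 passed the filter on low values (1 or more in at least 3 libraries) and were tested. In BE(2)C vs SH-SY5Y, 51 were called higher, 4 lower and 24 were not called, with a median log2 fold change of 0.75 and a range from -1.34 to 2.64. In Kelly vs SH-SY5Y, 43 were higher, 4 lower and 32 not called, with a median of 0.41. In Kelly vs BE(2)C, 11 were higher, 38 lower and 30 not called, with a median of -0.36. The median of all genes lay at -0.04, 0.00 and 0.02 in the 3 comparisons, and the shares of all genes called are those given with the mitochondrial counts. The median of the mitochondrial members less that of the nuclear members was 0.47 in BE(2)C vs SH-SY5Y, -0.28 in Kelly vs SH-SY5Y and -0.82 in Kelly vs BE(2)C. The first was 0.31 without BE(2)C replicate 2 and turned to -0.57 with quantile normalization. Both ends of the BE(2)C range came from members with a mean under 25 scaled TPM over the 9 libraries. For the 59 nuclear members with a mean of at least 25, the median in BE(2)C vs SH-SY5Y was 0.86. Their range was -0.94 to 1.77.

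The scaling of the libraries bears on these counts. With the values as deposited, spike-ins left in the total, the median of all genes shifted to -0.44 in BE(2)C vs SH-SY5Y and to -0.55 in Kelly vs SH-SY5Y, and the nuclear calls became 25 higher and 11 lower, and 5 higher and 24 lower. On that scale 18.2% and 12.1% of all calls were of higher genes, against 48.2% and 50.8% as scaled; with library totals only they were 23.6% and 41.5%, and 36.3% and 41.8% with the mitochondrial genes left out of it. For Kelly vs BE(2)C, the share was 53.2% as scaled, 74.3% with library totals only and 40.1% as deposited. Relative to the median of all genes on the same scale, the nuclear members changed little between scalings: their median stood 0.79 above it as scaled and 0.71 above it as deposited in BE(2)C vs SH-SY5Y, and 0.42 and 0.35 above it in Kelly vs SH-SY5Y. For the mitochondrial members the same distances were 1.26 and 1.09 in BE(2)C and 0.14 and -0.03 in Kelly. With quantile normalization, which sets the top ranks of all libraries equal, they were -0.01 in BE(2)C and 0.05 in Kelly. Of 126 fold changes of named genes, 17 turned sign with the values as deposited, 21 more lost their call and 2 were of genes under the filter on low values there. Directions in the text are therefore relative to the other genes of a library, not per cell.

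**Figure D3:**
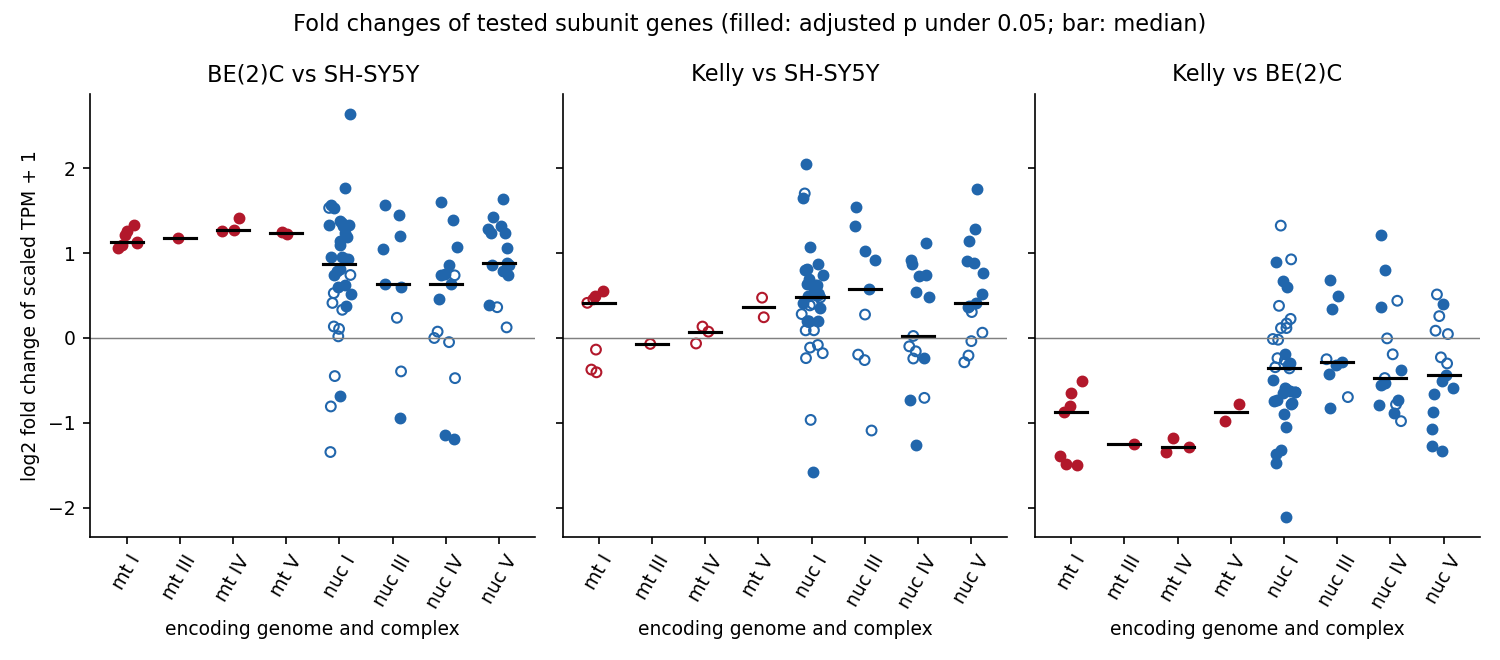
Log2 fold change of each tested subunit gene in the 3 comparisons, by encoding genome (mt, mitochondrial; nuc, nuclear) and complex; filled points were called (limma, adjusted p under 0.05), open points were not, and bars are medians. In BE(2)C vs SH-SY5Y all mitochondrial points lie between 1.06 and 1.41 while nuclear points spread from -1.34 to 2.64. Nuclear members with a mean of at least 25 scaled TPM spread from -0.94 to 1.77 there.

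The balance of the 2 genomes was also taken by complex. The ratio of the mitochondrial-encoded sum to the nuclear-encoded sum, over all 4 complexes, was 10.4, 8.15 and 8.09 in Kelly, 11.6, 19.5 and 18.2 in BE(2)C and 10.9, 10.7 and 11.4 in SH-SY5Y. Every BE(2)C library lay above, and every Kelly library below, the SH-SY5Y libraries. The difference was 0.55 on the log2 scale between BE(2)C and SH-SY5Y, or 0.40 without BE(2)C replicate 2, and -0.31 between Kelly and SH-SY5Y. With the ratio of geometric means, which gives each gene equal weight, the BE(2)C and SH-SY5Y libraries overlapped (difference 0.48), as did those of Kelly and SH-SY5Y (-0.28).
In complex III the ratio was 5.92, 9.23 and 9.67 in BE(2)C and 3.66, 3.69 and 3.64 in SH-SY5Y, a log2 difference of 1.14 with no overlap. UQCRH, the most abundant nuclear member of the complex, was lower in BE(2)C, and by geometric means the complex III difference was 0.59 with overlap. In complex IV the ratio was 17.4, 28.2 and 25.6 in BE(2)C and 15.1, 14.7 and 15.9 in SH-SY5Y, a difference of 0.61 without overlap, and by geometric means it was 0.80 without overlap. In complexes I and V the lines overlapped, with differences of 0.40 and 0.30. The complex I difference was 0.64 without BE(2)C replicate 1 and 0.27 without BE(2)C replicate 2. That of complex V was 0.57 without BE(2)C replicate 1 and 0.13 without BE(2)C replicate 2. By sums, Kelly lay below SH-SY5Y in complexes I (-0.35) and IV (-0.36) without overlap, and in III (-0.21) and V (-0.29) with overlap. The complex III difference was -0.35 without Kelly replicate 1 and -0.14 without Kelly replicate 3. By geometric means, complexes I (-0.26) and IV (-0.24) overlapped, and III (-0.50) and V (-0.20) did not. Which complexes separated Kelly from SH-SY5Y thus depended on the measure. With 3 libraries against 3, an exact permutation test over libraries cannot go below 0.10, and none is given.

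**Figure D4:**
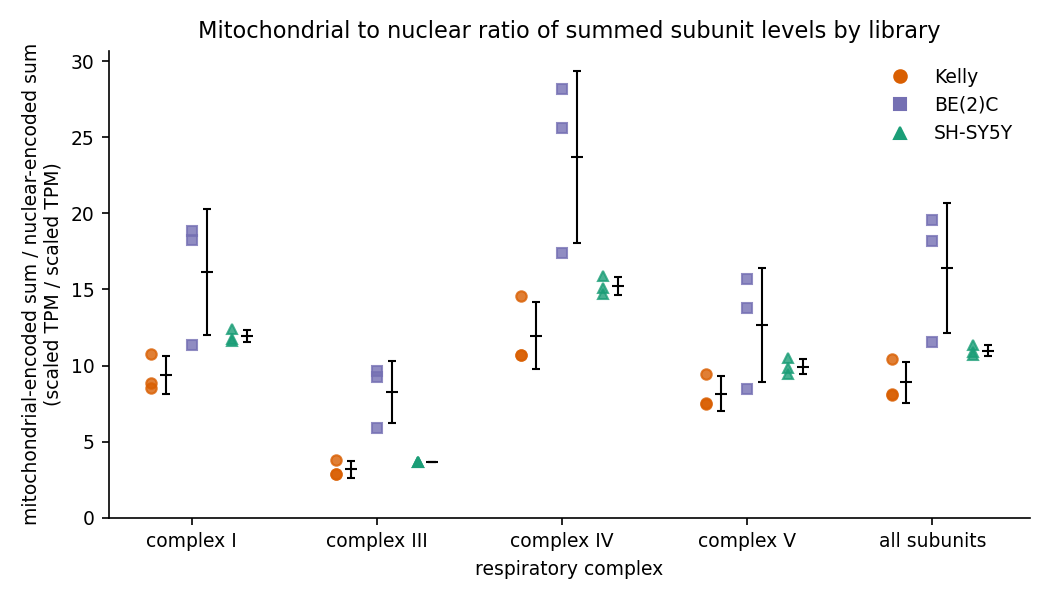
Ratio of the summed scaled TPM of mitochondrial-encoded to nuclear-encoded subunits, per library, for each complex and for all subunits; error bars are mean ± SD of 3 libraries. The BE(2)C libraries reach 28.2 in complex IV, where those of SH-SY5Y lie between 14.7 and 15.9, and the first BE(2)C library is the lowest of its line in every complex.

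Complex I oxidises NADH, and its nuclear members fell into a core of catalytic subunits and a larger set of accessory ones. Of the 29 accessory subunits, 22 were higher in BE(2)C than SH-SY5Y, 1 was lower and 6 were not called (median 0.96). Of the 7 core subunits, 2 were higher and 5 not called (median 0.14). In Kelly vs SH-SY5Y, 17 accessory subunits were higher, 1 lower and 11 not called (median 0.41), and 3 core subunits were higher and 4 not called (median 0.50). NDUFS6, an accessory subunit of the electron-input module (chr5:1801400-1816605, GENCODE release 29), was at 580, 544 and 503 scaled TPM in BE(2)C. Kelly had 299, 287 and 287, and SH-SY5Y 170, 163 and 143. The 3 lines did not overlap, and the fold changes against SH-SY5Y were 1.77 ± 0.08 in BE(2)C (limma, adjusted p = 1.5e-07) and 0.88 ± 0.08 in Kelly (adjusted p = 1.44e-05). NDUFV3, another accessory subunit of that module, was at 141 ± 16.4 in BE(2)C (SD, n = 3), 50.6 ± 9.49 in Kelly and 47.4 ± 7.66 in SH-SY5Y. Its lowest BE(2)C library (124) stood above the highest of the other lines (61.3). NDUFC2, an accessory subunit of the membrane arm, showed the same pattern, higher in BE(2)C than SH-SY5Y (1.19 ± 0.13) and lower in Kelly than in BE(2)C (-1.37 ± 0.13). NDUFA9, a subunit near the quinone site, was higher in both amplified lines, by 1.53 ± 0.32 in BE(2)C and 1.65 ± 0.32 in Kelly.

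NDUFS5, an accessory subunit of the membrane arm (chr1:39026318-39034636), went the other way. It stood at 657, 658 and 598 in BE(2)C, 1180, 1179 and 1190 in Kelly and 1068, 1014 and 997 in SH-SY5Y. It was lower in BE(2)C than in SH-SY5Y, with a log2 fold change of -0.69 ± 0.06 (limma, adjusted p = 7.99e-06) and higher in Kelly by 0.21 ± 0.06 (adjusted p = 0.0135), a direction that turned with the values as deposited (-0.51) and a call lost without SH-SY5Y replicate 3 (0.18, adjusted p = 0.057). Among the core subunits, NDUFV2 and NDUFS3, an iron-sulfur subunit and a subunit of the connecting module, were higher in Kelly alone. NDUFV2 was at 299, 246 and 295 in Kelly, 173, 176 and 177 in BE(2)C and 169, 147 and 163 in SH-SY5Y (Kelly vs SH-SY5Y 0.80 ± 0.09; BE(2)C vs SH-SY5Y 0.14 ± 0.09, adjusted p = 0.202). NDUFS1, the largest iron-sulfur subunit, was at 51.3, 40.2 and 47.3 in BE(2)C and at 25.7, 22.5 and 22.9 in SH-SY5Y, with Kelly at 20.9, 26.7 and 18.6. Core subunits NDUFV1 and NDUFS7 were listed at levels of 0.233 to 18.3 and varied between libraries of the same line: NDUFV1, which binds NADH, was at 18.3, 0.721 and 0.398 in Kelly. Neither was called in any comparison.

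Complex III takes electrons from ubiquinol to cytochrome c. Of its 9 nuclear members, 6 were higher in BE(2)C than SH-SY5Y, 1 was lower and 2 were not called, and in Kelly 5 were higher and 4 not called. UQCR10, a small subunit near cytochrome c1 (chr22:29767369-29770413), was at 449, 479 and 436 in Kelly, 369, 328 and 276 in BE(2)C and 149, 161 and 158 in SH-SY5Y. It was the member of the complex highest in Kelly relative to SH-SY5Y, by 1.54 ± 0.10 (limma, adjusted p = 1.6e-06), and was also higher in Kelly than in BE(2)C, by 0.49 ± 0.10. UQCRC2, a core protein of the matrix side, was higher by 1.45 ± 0.15 in BE(2)C and 1.02 ± 0.15 in Kelly, and UQCRB, which lies near the quinone sites, by 1.56 ± 0.35 and 1.31 ± 0.35. UQCRFS1, the Rieske iron-sulfur protein, was higher by 1.20 ± 0.10 and 0.92 ± 0.10. UQCRH, the acidic hinge protein that contacts cytochrome c1 (chr1:46303631-46316776), was at 751, 843 and 560 in BE(2)C, 1190, 1106 and 1112 in Kelly and 1388, 1296 and 1399 in SH-SY5Y. The BE(2)C libraries were the lowest, and the difference from SH-SY5Y was -0.94 ± 0.13 (adjusted p = 0.000198). UQCRHL, a near-identical copy of UQCRH, was listed at 1.46 to 14.7, and the sources used here do not give how reads were divided between the 2.

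Complex IV, cytochrome c oxidase, reduces oxygen. Of its 19 nuclear members 15 were tested. In BE(2)C, 8 were higher than in SH-SY5Y, 2 were lower and 5 were not called. In Kelly, 7 were higher, 3 lower and 5 not called. The Kelly median of 0.02 is the value of COX6B2, a testis form at 2.8 or less in every library. COX4I1, COX4I2 and NDUFA4L2, also low, are in the set, so that this median does not describe the abundant members alone. COX5A, a matrix-side subunit (chr15:74919791-74938168), was at 1000.4, 1025 and 934 in BE(2)C, 517, 513 and 577 in Kelly and 351, 300 and 321 in SH-SY5Y. The lines did not overlap, with fold changes against SH-SY5Y of 1.60 ± 0.08 in BE(2)C (limma, adjusted p = 2.28e-07) and 0.72 ± 0.08 in Kelly. Its partner COX5B, which binds zinc (chr2:97646040-97648383), was at 304, 316 and 274 in BE(2)C, 168, 173 and 196 in Kelly and 322, 296 and 276 in SH-SY5Y. BE(2)C and SH-SY5Y overlapped, and Kelly was lower than SH-SY5Y (-0.73 ± 0.09, adjusted p = 9.15e-05). COX8A, the smallest membrane subunit, was at 1100, 1138 and 1172 in Kelly, 607, 737 and 624 in BE(2)C and 557, 672 and 639 in SH-SY5Y, so that Kelly alone was higher (Kelly vs SH-SY5Y 0.87 ± 0.09). NDUFA4, which joins the complex late, was higher in both amplified lines, by 0.75 ± 0.09 in BE(2)C and 1.11 ± 0.09 in Kelly. COX7B was higher by 1.39 ± 0.23 and 0.92 ± 0.23. COX6B1, on the side facing the intermembrane space, was higher in BE(2)C only (0.63 ± 0.09; in Kelly -0.16 ± 0.09, adjusted p = 0.187); the difference between the amplified lines was itself called (-0.79 ± 0.09). COX7A2L, a factor of supercomplex assembly, stood at 243 to 318 in all 9 libraries and was lower in Kelly than in SH-SY5Y (-0.24 ± 0.07; limma, adjusted p = 0.0190), a call lost without Kelly replicate 2 (-0.21) or SH-SY5Y replicate 1 (-0.22).

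Tissue isoforms of complex IV were low in all 3 lines. COX6A2 and COX7A1 (heart and muscle forms), COX7B2 and COX8C (testis forms) did not pass the filter: COX7B2 was listed at 0 in all 9 libraries, COX6A2 at 0 in 8, and none of the 4 exceeded 2.09. Their counterparts COX6A1, COX7A2, COX7B and COX8A stood at 840 to 1812, 195 to 322, 13.1 to 61.6 and 557 to 1172. COX6B2, a testis form, was at 2.8 or less everywhere and lower in BE(2)C than in SH-SY5Y (-1.19 ± 0.30; limma, adjusted p = 0.00786). NDUFA4L2, a hypoxia-induced relative of NDUFA4, was at 3.36 or less and lower in Kelly than in SH-SY5Y (-1.26 ± 0.30, adjusted p = 0.00565). COX4I2, the form known from lung and hypoxic cells, was at 1.31 to 11.9, while the ubiquitous form COX4I1 was listed at only 0.944 to 10.5, so that no balance of the COX4 forms can be read from these values. ATP5L2 and the readthrough NDUFC2-KCTD14 were the other untested members; the latter was listed at 9.43, 0.00941 and 97.1 in the 3 Kelly libraries and near 0 in all others.

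**Figure D5:**
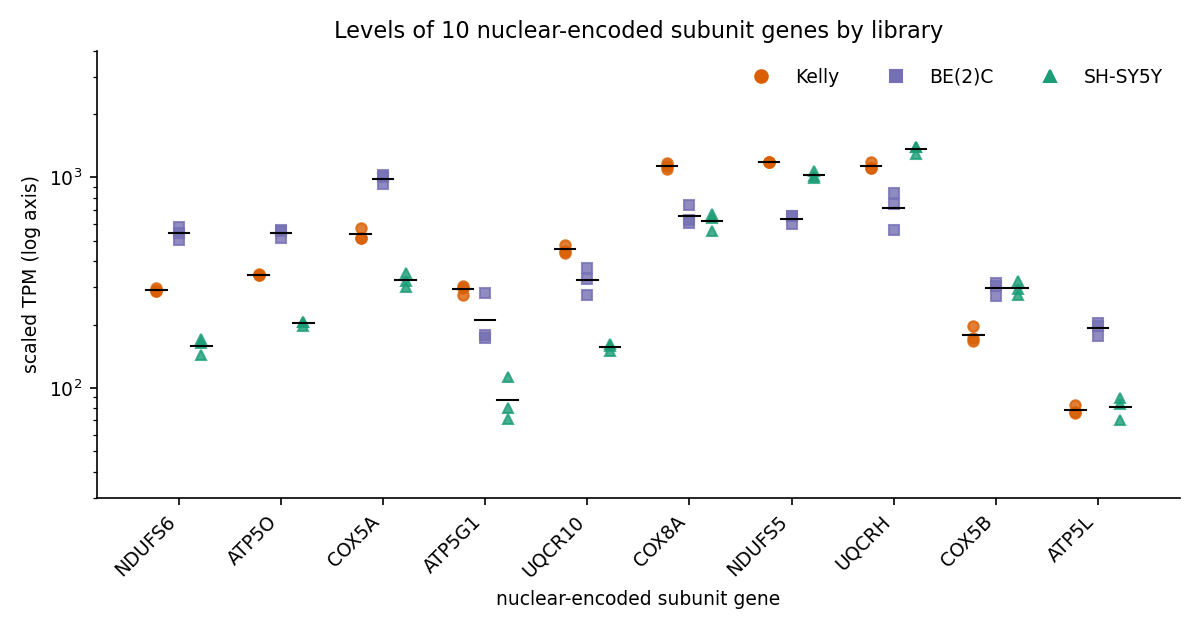
Scaled TPM (log axis) of 10 nuclear-encoded subunit genes in the 3 libraries of each line; bars are means of 3 libraries. NDUFS6, ATP5O and COX5A are highest in BE(2)C, UQCR10 and COX8A in Kelly, and NDUFS5 and UQCRH are lowest in BE(2)C, where COX5B is level with SH-SY5Y.

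Complex V showed the most uniform nuclear change in BE(2)C: of 15 tested members, 13 were higher than in SH-SY5Y, none was lower and 2 were not called (median 0.88). In Kelly, 10 were higher, none lower and 5 not called (median 0.41). In the catalytic F1 head, ATP5B, the beta subunit, was at 1923, 1743 and 1565 in BE(2)C, 1285, 1244 and 1329 in Kelly and 713, 684 and 694 in SH-SY5Y. The lines did not overlap (1.32 ± 0.08 and 0.88 ± 0.08 against SH-SY5Y). ATP5D, the delta subunit of the rotor, was higher in BE(2)C by 1.64 ± 0.14 (limma, adjusted p = 1.08e-05), with Kelly not called against SH-SY5Y (0.31 ± 0.14, adjusted p = 0.102) and lower than BE(2)C (-1.34 ± 0.14). ATP5O, the stalk subunit that links head and membrane part (chr21:33903453-33915980), was at 555, 563 and 516 in BE(2)C, 345, 349 and 343 in Kelly and 205, 197 and 205 in SH-SY5Y. Its spread within lines was small and the fold changes were 1.42 ± 0.05 and 0.77 ± 0.05. In the membrane part, ATP5L, the g subunit (chr11:118401154-118431496), was at 203, 197 and 176 in BE(2)C, 75.9, 76.9 and 83.2 in Kelly and 89.4, 83.9 and 70.0 in SH-SY5Y, so that BE(2)C alone was higher. ATP5A1, the alpha subunit that pairs with ATP5B in equal number, was listed at 3.99 to 10.6, far under ATP5B.

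The c subunits form the rotating ring of ATP synthase, and 3 nuclear genes encode the same mature protein. ATP5G1 (chr17:48892765-48895871) was at 305, 277 and 299 in Kelly, 179, 281 and 172 in BE(2)C and 80.4, 112 and 71.2 in SH-SY5Y. It was higher than in SH-SY5Y by 1.75 ± 0.21 in Kelly (limma, adjusted p = 8.44e-05) and 1.24 ± 0.21 in BE(2)C (adjusted p = 0.000657). ATP5G3 was at 583, 620 and 663 in Kelly, 505, 501 and 415 in BE(2)C and 287, 236 and 245 in SH-SY5Y (1.28 ± 0.10 and 0.88 ± 0.10). Their sum with ATP5G2 was 948 to 1011 in Kelly, 670 to 871 in BE(2)C and 366 to 407 in SH-SY5Y, with no overlap between lines. ATP5G3 gave the largest part of the sum in every line (62.2% to 66.0% on average), and ATP5G2 gave 5.85 ± 0.88% in Kelly (SD, n = 3), against 11.4 ± 2.14% in SH-SY5Y and 10.6 ± 1.60% in BE(2)C. The c subunit sum was higher in Kelly than in BE(2)C. The mitochondrial-encoded MT-ATP6, which works against the c ring, was lower in Kelly than in BE(2)C (-0.98 ± 0.20). Of the 3 c subunit genes, only ATP5G3 was called higher in Kelly than in BE(2)C (0.40 ± 0.10). ATP5G1 was not called there (0.51 ± 0.21), and ATP5G2 was called lower (-0.50 ± 0.13). Of the 15 tested nuclear members of complex V, 8 were lower in Kelly than in BE(2)C, 1 was higher and 6 were not called.

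Motif letters of 3 known regulators were looked for in the nuclear promoters. In 300-base windows around transcription starts (250 before, 50 after; RefSeq, GRCh38.p14), 58 of 70 nuclear subunits had a promoter listed, and both strands were read. The NRF1 consensus, which the capitals in the stretches below show, was in 13 (22.4%), against 6.98% of 27305 genes. These 27305 are all genes with a promoter listed, expressed here or not, so the shares of members and of genes come from unlike sets. A comparison with the tested genes alone was not made. The ETS letters CCGGAAGT were in 10 (17.2%), against 4.95%, and the YY1 letters AAGATGGC in 11 (19.0%), against 3.52%; NDUFA9, ATP5O, NDUFA3 and UQCRC1 held both the NRF1 consensus and the YY1 letters and UQCR11 both the NRF1 consensus and the ETS letters. A match is a description of the sequence, not a site. Of the 13 with the NRF1 consensus, 10 were called higher and none lower in BE(2)C vs SH-SY5Y, and 9 and none in Kelly vs SH-SY5Y. NDUFA3 and NDUFA11 were called in neither comparison, and UQCR11 and ATP5I in BE(2)C only. Of the 10 with the ETS letters, 5 were higher and 1 lower in BE(2)C, and 2 and 1 in Kelly. Of the 11 with the YY1 letters, 7 were higher in BE(2)C and 6 in Kelly, and none was lower. Beside these counts, 51 of 79 tested nuclear members were higher in BE(2)C and 43 in Kelly, and 28.6% and 28.1% of all genes. The 5 stretches below were chosen after values were seen, from members called higher in each of the 2 comparisons, and lie before the start, in the direction of transcription, with the NRF1 consensus, or its reverse complement, in capitals.
NDUFA9, chr12:4649009-4649068: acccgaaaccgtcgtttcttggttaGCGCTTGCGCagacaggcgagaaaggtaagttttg
NDUFA12, chr12:95003779-95003838: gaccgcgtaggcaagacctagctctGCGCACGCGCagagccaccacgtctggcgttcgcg
UQCRFS1, chr19:29213152-29213207: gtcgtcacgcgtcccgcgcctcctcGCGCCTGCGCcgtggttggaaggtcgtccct
ATP5C1, chr10:7788130-7788176: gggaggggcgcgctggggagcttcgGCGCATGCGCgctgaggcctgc
ATP5O, chr21:33915805-33915853: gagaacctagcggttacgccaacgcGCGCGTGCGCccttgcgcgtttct
The letters begin 80, 116, 31, 22 and 24 bases before the start in NDUFA9, NDUFA12, UQCRFS1, ATP5C1 and ATP5O. Fold changes in BE(2)C and Kelly were 1.10 ± 0.08 and 0.50 ± 0.08 for NDUFA12 and 1.28 ± 0.13 and 0.41 ± 0.13 for ATP5C1, whose Kelly call was lost without any 1 of Kelly 1, Kelly 3, SH-SY5Y 2 or SH-SY5Y 3 (0.31 to 0.41); those of the others are given with their complexes. UQCRC1, with the same letters, was called in Kelly only (0.58 ± 0.10; BE(2)C 0.24 ± 0.10, adjusted p = 0.0669).

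Genes that serve the chain without matching its symbols were described from 7 lists, whose counts stand beside 28.6% of all genes called higher in BE(2)C and 28.1% in Kelly. Of 5 subunits with other names, 4 were higher in BE(2)C than SH-SY5Y and none lower; in Kelly 2 were higher and 1 lower. CYC1, the cytochrome c1 of complex III, was at 423, 454 and 462 in Kelly, 315, 328 and 256 in BE(2)C and 224, 206 and 222 in SH-SY5Y. USMG5, a small subunit of ATP synthase, was at 426, 502 and 411 in Kelly, lower than in SH-SY5Y (-0.81 ± 0.11; limma, adjusted p = 0.000184). Of complex II and cytochrome c, which have no mitochondrial-encoded subunit, 4 of 5 genes were higher in each amplified line and none lower, with medians of 1.20 in BE(2)C and 0.86 in Kelly. CYCS, the electron carrier between complexes III and IV, was at 871, 848 and 732 in BE(2)C, 668, 717 and 694 in Kelly and 346, 423 and 302 in SH-SY5Y. SDHD, a membrane anchor of complex II, was higher in BE(2)C by 1.37 ± 0.12, and SDHB, its iron-sulfur subunit, in Kelly by 1.04 ± 0.07. Each was also called higher in the other amplified line, by less. The 4 genes higher in BE(2)C include SDHA, listed at only 1.68, 11.8 and 2.42 there.

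Assembly factors were called higher about as often as all genes. Of 45, 14 were higher, 6 lower and 25 not called in BE(2)C vs SH-SY5Y (median 0.13), and 14, 4 and 27 in Kelly vs SH-SY5Y (median 0.28), so that 31.1% were higher in each. COX17, the copper chaperone of complex IV, differed most: it was at 232, 237 and 221 in BE(2)C, 158, 202 and 147 in Kelly and 21.4, 23.8 and 23.6 in SH-SY5Y, a log2 fold change of 3.27 ± 0.11 in BE(2)C (limma, adjusted p = 3.92e-08) and 2.82 ± 0.11 in Kelly (adjusted p = 9.41e-08). NDUFAF2, a complex I assembly factor, was higher by 1.89 ± 0.11 and 1.21 ± 0.11, and NDUFAF3, another, was lower (-1.14 ± 0.35 and -1.73 ± 0.35), with the BE(2)C call lost without any 1 of BE(2)C 1, BE(2)C 3 or SH-SY5Y 3 (-1.01 to -0.99). Of 20 genes for replication and transcription of mitochondrial DNA, 6 were higher, 4 lower and 10 not called in BE(2)C vs SH-SY5Y, with a median of -0.01 beside -0.04 for all genes; the share higher, 30%, was near that of all genes. POLRMT, the mitochondrial RNA polymerase, was at 107, 137 and 141 in BE(2)C, 131, 141 and 126 in Kelly and 71.7, 81.3 and 63.9 in SH-SY5Y, so that both amplified lines were higher to a like degree (0.82 ± 0.12 and 0.87 ± 0.12). TOP1MT, the mitochondrial topoisomerase, was higher in BE(2)C (0.85 ± 0.13), with Kelly at -0.03 ± 0.13 (adjusted p = 0.875) and lower than BE(2)C (-0.88 ± 0.13). DGUOK, which supplies nucleotides for mitochondrial DNA, was lower in both (-1.02 ± 0.25 and -0.72 ± 0.25), with the Kelly call lost without any 1 of Kelly 2, Kelly 3 or the SH-SY5Y libraries (-0.76 to -0.60).

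Of 22 genes for processing and stability of mitochondrial RNA, 12 were higher and none lower in BE(2)C vs SH-SY5Y (median 0.40), and 9 were higher and 2 lower in Kelly vs SH-SY5Y (median 0.31). SLIRP, which stabilises mitochondrial mRNAs with LRPPRC, was at 132, 197 and 191 in BE(2)C, 81.3, 91.4 and 67.8 in Kelly and 78.7, 92.3 and 121 in SH-SY5Y. BE(2)C alone was higher (0.83 ± 0.20; limma, adjusted p = 0.00561), and Kelly was lower than BE(2)C (-1.09 ± 0.20). REXO2, an RNA exonuclease of mitochondria, was higher by 2.21 ± 0.24 in BE(2)C and 1.89 ± 0.24 in Kelly, and FASTKD3, an RNA-binding protein, by 1.77 ± 0.16 and 1.36 ± 0.16. Of 13 regulators of respiratory gene transcription, 7 were higher and 1 lower in BE(2)C, and 4 and 2 in Kelly, where the share higher (30.8%) was near that of all genes. PPARGC1B, a coactivator of NRF1, was at 13.7 ± 2.29 in BE(2)C (SD, n = 3), 12.3 ± 0.58 in Kelly and 0.407 ± 0.12 in SH-SY5Y, with log2 fold changes of 3.37 ± 0.18 and 3.24 ± 0.18. PPRC1, a related coactivator, was higher by 0.84 ± 0.10 and 1.12 ± 0.10. YY1 was higher in BE(2)C (0.41 ± 0.13) and lower in Kelly (-0.67 ± 0.13) than in SH-SY5Y. The BE(2)C direction turned with library totals only (-0.050) and as deposited (-0.15), and its call was lost without any 1 of BE(2)C 1, SH-SY5Y 2 or SH-SY5Y 3 (0.27 to 0.40). Of 18 enzymes of the tricarboxylic acid cycle, 12 were higher and 1 lower in BE(2)C (median 0.46) and 9 and 1 in Kelly (median 0.61). DLD, the shared dehydrogenase subunit of the 2-oxoacid complexes, was higher in BE(2)C (0.69 ± 0.18) and lower in Kelly (-1.27 ± 0.18).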

How the data were processed

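RNA levels of 3 cell lines, 3 libraries each, were read from 1 deposited table of log10 values; from the values themselves these are log10(TPM + 1), which back-transform to 966592 to 980009 per library. HISAT 0.1.6, Salmon 0.3.2 and GRCh38 are listed, without roles, in the submitters' processing notes. Of 19837 entries, 92 spike-ins and 11 reporter or selection markers were removed, and 28 date-like names were kept for totals but not tested. Values were rescaled to 1000000 per library and divided by an unweighted trimmed-mean factor (30% of ratios and 5% of levels trimmed at each end; 0.758 to 1.17). limma 3.58.1 (R 4.3.3, trend) was run on log2(scaled TPM + 1), which understates the change of low genes. Every column was used (0 unused). Some members and list genes are not reported here by name. Members and lists were chosen with earlier results of these data known. Named nuclear members are up to 2 called highest and 2 lowest per complex and comparison with at least 10 scaled TPM in the higher line, with isoform families and untested members; others, and the motif set, gene ratios and the mean of 25, were chosen after values were seen. Tested on simulated data for BE(2)C vs SH-SY5Y (13076 genes), the fit recovered 80 of 100 genes changed by 1 and 26 of 100 changed by 0.5 on the log2 scale, with 5 false calls. No other genes were changed there, whereas 59.4% of genes were called in the data, so these rates need not hold for the data. Symbols of all 98 members were matched to GENCODE release 29 (79 by symbol, 19 by another symbol). Alternatives were library totals only, mitochondrial genes out of the total, values as deposited, quantile normalization, pseudocount 0.1, no filter, only the 6 libraries of 2 lines, a replicate block, and each library left out.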

Additional observations from a re-analysis of the deposited data

How the results depend on the processing

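Depth is unknown and cannot be used to bound small differences; the 3 libraries of a line set the precision. Counts of members and the differences of medians are given first, then the fold changes of named genes. With values as deposited, nuclear members called higher and lower were 25 and 11 in BE(2)C vs SH-SY5Y and 5 and 24 in Kelly vs SH-SY5Y, 5 were higher in Kelly vs BE(2)C, and mitochondrial members in Kelly vs SH-SY5Y were 0 higher and 8 lower. With library totals only, nuclear members lower were 10 in BE(2)C vs SH-SY5Y and 10 in Kelly vs SH-SY5Y, 17 were higher and 23 lower in Kelly vs BE(2)C, and 2 mitochondrial members were lower in Kelly vs SH-SY5Y. With mitochondrial genes out of the total, Kelly vs SH-SY5Y had 10 nuclear members lower and 1 mitochondrial member higher and 2 lower. Quantile normalization gives the top ranks equal values by construction, and the mitochondrial mRNAs hold them. It left 3 mitochondrial members higher and 1 lower in BE(2)C vs SH-SY5Y, 4 and 4 in Kelly vs SH-SY5Y and 3 and 7 in Kelly vs BE(2)C, with 11 nuclear members lower in Kelly vs SH-SY5Y. The mitochondrial median less the nuclear median turned to -0.57 in BE(2)C vs SH-SY5Y and 0.22 in Kelly vs BE(2)C. With no filter on low values, mitochondrial calls were 7 higher in BE(2)C vs SH-SY5Y, 0 higher in Kelly vs SH-SY5Y and 6 lower in Kelly vs BE(2)C. With only the 6 libraries of the 2 lines, Kelly vs SH-SY5Y had 8 nuclear members lower and 5 mitochondrial members higher and 2 lower. Apart from quantile normalization, the cause was not tested. Leaving out 1 library at a time gave 47 to 51 nuclear members higher and 3 to 5 lower in BE(2)C vs SH-SY5Y, 37 to 43 and 3 to 6 in Kelly vs SH-SY5Y, and 10 to 12 and 32 to 39 in Kelly vs BE(2)C; mitochondrial members higher in Kelly vs SH-SY5Y ranged from 0 to 5 and lower from 0 to 2. No other count moved by over 1.5 times.

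Libraries with the same number did not deviate together (correlations -0.05 to 0.03; 2 of 9 libraries correlated best with their own number). With the replicate block, 1 mitochondrial member was called higher in Kelly vs SH-SY5Y against 2 without it, and nuclear members higher in BE(2)C vs SH-SY5Y were 53.

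Among 126 fold changes of named genes, calls were lost without a change of sign in 21 with values as deposited, 8 with library totals only, 5 where the total left out mitochondrial genes, 9 with quantile normalization, 19 with no filter, 3 with only the 6 libraries of the 2 lines and 2 with the replicate block. Calls were gained in 8, 3, 4, 8, 0, 6 and 1. Leaving out 1 library ended the call of 9 under at least 1 of the 9 libraries, MT-ND2 and MT-ND3 among them, and gave a call to 7. Pseudocount 0.1 changed no call. Signs turned as follows. With values as deposited, Kelly vs SH-SY5Y gave MT-ND2 -0.22, MT-ND3 -0.16, MT-ND5 -0.30, MT-ND6 -0.26, MT-CO2 -0.64, MT-CO3 -0.58, MT-ATP6 -0.47, MT-ATP8 -0.24, NDUFS5 -0.51, NDUFA12 -0.20, ATP5C1 -0.29, UQCRC1 -0.13 and ATP5D -0.37, and BE(2)C vs SH-SY5Y gave NDUFV2 -0.42, UQCRC1 -0.32, YY1 -0.15 and COX8A -0.49. With library totals only they were MT-CO2 -0.063 and MT-CO3 -0.0027 in Kelly vs SH-SY5Y, and NDUFV2 -0.32, UQCRC1 -0.22, YY1 -0.050 and COX8A -0.39 in BE(2)C vs SH-SY5Y. With mitochondrial genes out of the total they were MT-CO2 -0.063 and MT-CO3 -0.0032 in Kelly vs SH-SY5Y, and NDUFV2 -0.076 and COX8A -0.14 in BE(2)C vs SH-SY5Y. With quantile normalization they were MT-ND2 -0.070, MT-ND4 -0.062, MT-CO1 -0.054, MT-CO2 0.00, MT-ATP6 -0.11, NDUFV2 -0.15, UQCRC1 -0.030 and COX8A -0.30 in BE(2)C vs SH-SY5Y, TOP1MT 0.058 in Kelly vs SH-SY5Y, and MT-ND2 0.44, MT-ND3 0.50, MT-CO2 0.052, MT-ATP6 0.14 and MT-ATP8 0.12 in Kelly vs BE(2)C. Values near 0 also turned with 1 library left out, none of them called: the ranges were -0.21 to 0.0062 for MT-CYB, -0.070 to 0.16 for MT-CO2 and -0.087 to 0.0023 for TOP1MT in Kelly vs SH-SY5Y, and -0.054 to 0.060 for COX5B and -0.012 to 0.13 for COX8A in BE(2)C vs SH-SY5Y.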

Other observations

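A group of nuclear members had low values for subunits that the complexes need. Of the 70 nuclear subunits left after isoforms, supercomplex factors and non-subunits were set aside, 13 had a mean under 25 scaled TPM over the 9 libraries (3.22 to 19.0), among them ATP5A1, COX4I1, NDUFV1 and NDUFS7. The other 57 lay between 27.7 and 1261. The 13 had a median of 14 annotated transcripts (3 to 29) in GENCODE release 29 and the 57 a median of 6 (1 to 16), with 0 and 1 as the median number of pseudogenes named for them. Over all nuclear members with a mean of at least 25 (59 genes), 48 were called higher, 2 lower and 9 not called in BE(2)C vs SH-SY5Y. Of the 26 under it, 20 were tested, with 3 higher, 2 lower and 15 not called.

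Nuclear members were also set beside the genes around them. For 58 members with a mean of at least 25 and a position, the median log2 fold change of other tested genes within 5 Mb was taken. Across these genes, which are not independent replicates and share windows, Pearson's r of member and neighbourhood was 0.64 in BE(2)C vs SH-SY5Y, 0.50 in Kelly vs SH-SY5Y and 0.66 in Kelly vs BE(2)C (Spearman's rho 0.54, 0.36 and 0.60). The members stood above their neighbours in 56, 51 and 10 of 58 cases. NDUFS5 and UQCRH, both on chromosome 1 and lower in BE(2)C, had neighbourhood medians of -0.64 and -0.65 there. COX5B, lower in Kelly, had -0.99 in Kelly and -0.68 in BE(2)C. The neighbourhood of ATP5L stood at -0.89 in Kelly and 0.32 in BE(2)C, and ATP5L itself at -0.04 (not called) and 1.24. Other members differed in sign from their neighbourhood. In BE(2)C, NDUFA4 and ATP5G3 were higher (0.75 and 0.88), with neighbourhood medians of -0.52 for each. Gene copy number was not analysed here.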
